A study of Mus musculus with 8 samples.

Results

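The variable (V) segments of the mouse immunoglobulin kappa light chain locus, named Igkv, were described in early B cells from bone marrow of C57BL/6J mice. Members were all genes whose symbol starts with Igkv and whose level was above 0 FPKM (fragments per kilobase of transcript, scaled to the library's mapped fragments) in at least 1 library. This kept 126 of 160 Igkv genes, among 52550 genes in each library's table. The kept segments were all 100 annotated as functional V genes and 26 of 60 annotated as pseudogenes. The 34 Igkv genes at 0 in every library were pseudogenes.

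RNA was sequenced from early B cells of both stages, sorted by flow cytometry from wild type (WT) mice and from mice lacking lactoferrin (Lf-/-), an iron-binding protein of milk and of neutrophil granules. All groups shared the C57BL/6J strain, and the labels name no treatment; they give no age. The knockout was present in the whole animal and not only in B cells. The study's flow cytometry panel defined pro-B cells as B220+CD43+IgM-. Values were analysed for 4 pre-pro-B libraries (2 of each genotype) and for 3 pro-B libraries (1 WT, 2 Lf-/-). The other WT pro-B sample in the labels is not analysed here. The titles name an Lf-/- mouse 1 and an Lf-/- mouse 2, each at both stages, whereas for WT they give the numbers with the plural, so that the number of animals behind a WT library is not stated. Where separate animals are not stated, p-values measure only the spread between these libraries.

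A kappa light chain gene is assembled in a developing B cell by joining 1 V segment to 1 of the joining segments (Igkj), which lie next to the constant gene Igkc. The Rag1 and Rag2 recombinase cuts the DNA at signals beside each segment. The join usually takes place after the heavy chain gene has been assembled, at the pre-B stage, and the V segment of a cell's kappa chain is then fixed for most of its descendants. Plasma cells, which secrete antibody, carry far more light chain RNA per cell than other B cells. The transcript of a rearranged gene and that of an unrearranged segment both count toward a segment's FPKM here.

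All kept segments lie on chromosome 6 of GRCm38, between positions 67555497 and 70704177, a span of 3.15 megabases. Igkj1 starts at 70722562 and Igkc runs from 70726435 to 70726966. Of the kept segments, 50 lie on the plus strand and 76 on the minus strand. The locus mixes very similar segments: 52 of the 126 segments have another segment at least 95% identical to their transcript, and the most alike pair, Igkv6-20 and Igkv6-29, is 98.7% identical. How the deposited values divided reads between such copies is not known, so the level of a single segment with a close copy is uncertain.

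The last 300 bases of the germline coding sequence are shown first for 4 of the segments that led a library or ranked among the 10 highest in every library, so that the close copies can be compared. They were read 5′ to 3′ from the GENCODE M21 transcripts of GRCm38. Capitals mark the last in-frame cysteine codon and everything after it, which is the part of the segment that enters the antigen contact loop called CDR3 and is trimmed and joined to an Igkj segment. Igkv1-110 lies at chr6:68270485-68271267 (plus strand), Igkv1-117 at chr6:68121046-68121827 (plus strand), Igkv6-15 at chr6:70406469-70406992 (minus strand) and Igkv10-96 at chr6:68631963-68632442 (minus strand).
Igkv1-110: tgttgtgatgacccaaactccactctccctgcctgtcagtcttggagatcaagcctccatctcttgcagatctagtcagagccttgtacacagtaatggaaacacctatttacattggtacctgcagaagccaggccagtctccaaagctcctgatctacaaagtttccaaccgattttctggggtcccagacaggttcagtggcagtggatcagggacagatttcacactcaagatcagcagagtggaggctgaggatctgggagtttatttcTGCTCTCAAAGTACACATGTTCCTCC
Igkv1-117: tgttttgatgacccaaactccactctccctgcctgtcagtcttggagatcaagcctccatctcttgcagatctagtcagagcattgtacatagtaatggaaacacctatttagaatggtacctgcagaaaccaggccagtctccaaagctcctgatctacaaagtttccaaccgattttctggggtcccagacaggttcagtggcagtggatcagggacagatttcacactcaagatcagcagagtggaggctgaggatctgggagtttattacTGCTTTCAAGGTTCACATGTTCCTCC
Igkv6-15: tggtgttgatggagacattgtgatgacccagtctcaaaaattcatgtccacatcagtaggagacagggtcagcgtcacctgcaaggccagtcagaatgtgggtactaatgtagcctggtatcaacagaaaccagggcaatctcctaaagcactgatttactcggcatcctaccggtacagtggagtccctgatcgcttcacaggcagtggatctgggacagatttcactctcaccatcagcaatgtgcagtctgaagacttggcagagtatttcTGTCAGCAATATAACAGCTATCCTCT
Igkv10-96: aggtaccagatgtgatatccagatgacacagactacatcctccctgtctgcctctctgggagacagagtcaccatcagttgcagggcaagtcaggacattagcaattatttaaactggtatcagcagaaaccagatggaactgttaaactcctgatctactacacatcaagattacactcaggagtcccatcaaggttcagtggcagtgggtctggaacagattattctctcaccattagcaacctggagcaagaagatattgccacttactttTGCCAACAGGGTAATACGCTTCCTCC

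Igkv1-110 and Igkv1-117 differed by 10 edits over 359 coding bases in full, an identity of 97.2%. Igkv6-15 was 65.7% identical to Igkv10-96 and 62.2% identical to Igkv1-110. The closest copy of Igkv6-15 in the locus was Igkv6-23, at 94.5%, and that of Igkv10-96 was Igkv10-94, at 95.4%.

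For the other segments on which the results turn, only the end of the coding sequence is shown, because it carries the germline CDR3. Each line holds 30 bases before the cysteine codon in lower case and 26 bases from that codon on in capitals. Igkv12-44 lies at chr6:69814631-69815154, Igkv6-23 at chr6:70260409-70260955, Igkv8-30 at chr6:70117061-70117620 and Igkv8-16 at chr6:70386672-70387252, all on the minus strand. Igkv14-111 lies at chr6:68256389-68256869 and Igkv3-4 at chr6:70671788-70672377, both on the plus strand.
Igkv12-44: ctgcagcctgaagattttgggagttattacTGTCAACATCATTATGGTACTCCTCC
Igkv6-23: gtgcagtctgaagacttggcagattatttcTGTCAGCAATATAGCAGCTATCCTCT
Igkv8-30: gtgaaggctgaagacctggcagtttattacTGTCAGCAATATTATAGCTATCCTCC
Igkv14-111: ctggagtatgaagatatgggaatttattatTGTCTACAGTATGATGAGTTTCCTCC
Igkv3-4: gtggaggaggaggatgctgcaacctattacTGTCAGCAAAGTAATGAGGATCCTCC
Igkv8-16: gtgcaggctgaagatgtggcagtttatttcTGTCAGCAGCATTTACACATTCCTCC

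All 10 segments shown have 26 bases from the last in-frame cysteine codon to the end, as have 67 of the 100 functional segments, and all 10 end in CCTCN, where N is any base, as do 60 of the 100. Igkv6-23, whose end is shown, is a close copy of Igkv6-15, whose last 300 bases are given.

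The Lf-/- pre-pro-B 2 library stood apart from the others. It had 12172 genes above 0 FPKM, against 19477 to 20250 in the other 6 libraries, and 84 Igkv segments above 0, against 100 to 120. Medians, some counts and the main differences that rest on it are therefore also given without it. Ltf, the targeted gene, was at 2143 to 2731 FPKM in the 3 WT libraries and 88.2 to 168 FPKM in the 4 Lf-/- libraries, so the libraries followed their genotype labels.

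Markers of other cell types were present in every library. The 9 neutrophil markers took 23.7% to 50.9% of library FPKM and the 3 erythroid markers 1.27% to 10.3%. The 4 T and NK markers took 0.047% to 0.166%, most of it Nkg7, and the 3 plasmacytoid dendritic markers 0.003% to 0.021%. The part these cells had in the Igkv levels was not tested, and in bulk libraries fewer cells of a type and less RNA per cell cannot be told apart.

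Igkv transcripts took a larger share of the RNA in pre-pro-B than in pro-B libraries. Of library FPKM, the pre-pro-B samples gave Igkv 3.48% and 4.70% (WT) and 6.62% and 2.45% (Lf-/-). The pro-B samples gave 0.855% (WT) and 0.701% and 1.53% (Lf-/-). Every pre-pro-B library lay above every pro-B library, with means of 4.31% ± 1.79 (SD, n = 4) and 1.03% ± 0.444 (SD, n = 3), and the genotypes overlapped within each stage. The difference between the stage means was 3.28 percentage points, and 3.90 points without Lf-/- pre-pro-B 2.

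FPKM divides by transcript length, so short V segments weigh heavily in these shares. Weighted by transcript length, the Igkv share ranged over 0.793% to 2.58% at the pre-pro-B and 0.241% to 0.529% at the pro-B stage, which again did not overlap. With the 9 neutrophil markers left out of the total, the shares were 3.21% to 10.5% and 1.04% to 2.47%.

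Igkc encodes the constant part of every kappa chain. The gene had pre-pro-B levels of 48819 and 40807 FPKM (WT) and 66032 and 22236 FPKM (Lf-/-), and pro-B levels of 14164 FPKM (WT) and 8871 and 17871 FPKM (Lf-/-). Igkc ranked between the 3rd and the 14th highest gene in every library, and its lowest pre-pro-B value was above its highest pro-B value. Summed Igkv FPKM per Igkc FPKM ranged from 0.504 (WT pro-B 1) to 0.892 (WT pre-pro-B 2).

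**Figure D1:**
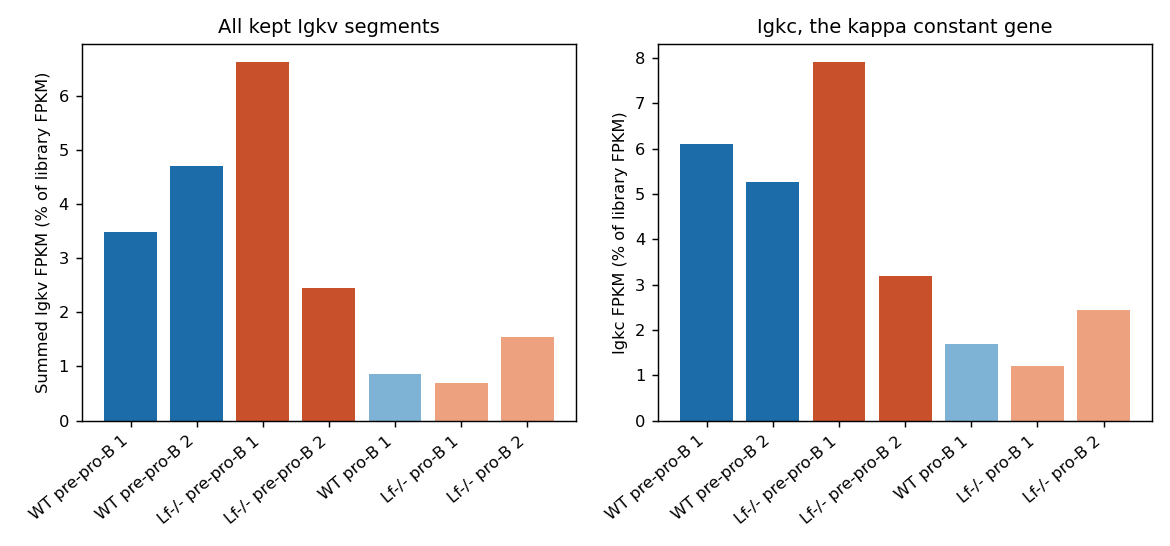
Summed Igkv FPKM (left) and Igkc FPKM (right), each in percent of the library's total FPKM, with 1 bar for each of the 7 libraries. The 4 pre-pro-B bars stand above the 3 pro-B bars in both panels, from 2.45% up against at most 1.53% for Igkv.

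A modest number of segments carried most of the Igkv RNA in each library. The highest segment was Igkv12-44 in WT pre-pro-B 1, with 11.1% of summed Igkv FPKM, and in WT pro-B 1, with 8.29%. Igkv1-110 led WT pre-pro-B 2 with 13.7%, and Igkv10-96 led Lf-/- pre-pro-B 2 with 20.1%. Igkv6-15 led Lf-/- pre-pro-B 1 with 14.4% and both Lf-/- pro-B libraries with 18.1% and 9.57%. The 5 highest segments together held 31.1% (WT pro-B 1) to 68.0% (Lf-/- pre-pro-B 2). Without Lf-/- pre-pro-B 2 the upper end was 46.2%, in Lf-/- pro-B 1.

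The number of segments needed to reach 50% of summed Igkv FPKM was 9 and 7 (WT) and 7 and 4 (Lf-/-) at the pre-pro-B stage, and 12 (WT) and 6 and 8 (Lf-/-) at the pro-B stage. The effective number of segments, the inverse of the sum of squared shares, was 23.4 and 17.3 (WT) and 19.3 and 9.04 (Lf-/-), then 30.5 (WT) and 15.0 and 22.6 (Lf-/-), in the same order. The most even library was WT pro-B 1 and the most concentrated was Lf-/- pre-pro-B 2, while the stages overlapped. Pseudogenes held 0.035% to 0.301% of summed Igkv FPKM.

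**Figure D2:**
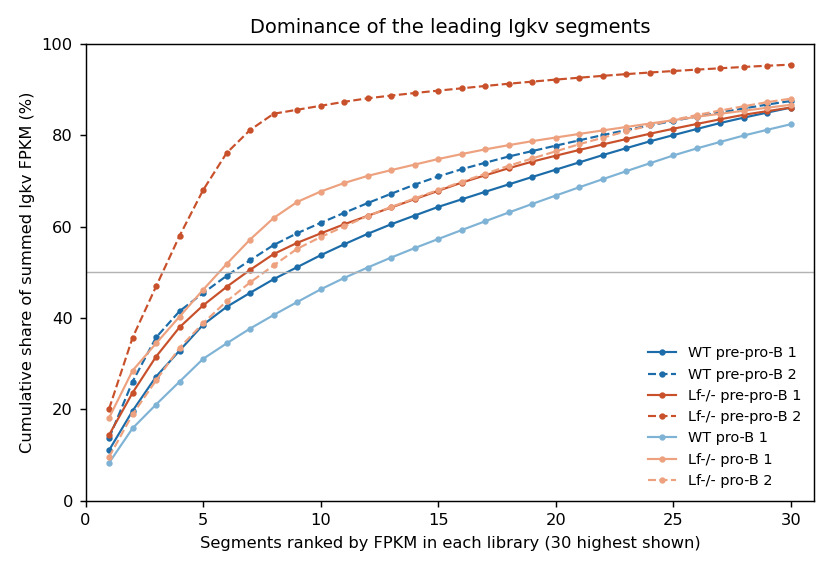
Cumulative share of summed Igkv FPKM (vertical axis, percent) over the 30 highest segments of each library, ranked by FPKM (horizontal axis), with 1 line for each of the 7 libraries and a grey line at 50%. Lf-/- pre-pro-B 2 reaches 86.5% with 10 segments, against 46.3% to 67.7% in the other 6 libraries.

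Igkv1-110 and Igkv1-117 were among the 10 highest segments in all 7 libraries. Igkv1-110 had pre-pro-B levels of 1570 and 4987 FPKM (WT) and 5103 and 1383 FPKM (Lf-/-), and pro-B levels of 355 FPKM (WT) and 302 and 835 FPKM (Lf-/-). Igkv1-117 had pre-pro-B levels of 2082 and 4507 FPKM (WT) and 3554 and 1704 FPKM (Lf-/-), and pro-B levels of 541 FPKM (WT) and 307 and 1050 FPKM (Lf-/-). For both segments every pre-pro-B library was above every pro-B library, and the genotypes overlapped within each stage.

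As a share of summed Igkv FPKM, Igkv1-110 ranged from 4.98% (WT pro-B 1) to 13.7% (WT pre-pro-B 2) and Igkv1-117 from 5.96% (Lf-/- pro-B 1) to 12.4% (WT pre-pro-B 2). The shares of pre-pro-B and pro-B libraries overlapped for both segments. Igkv6-15, Igkv6-23 and Igkv8-30 were among the 10 highest in 5 libraries, and Igkv10-96 and Igkv14-111 in 4. Another 16 segments reached the 10 highest in only 1 or 2 libraries.

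**Figure D3:**
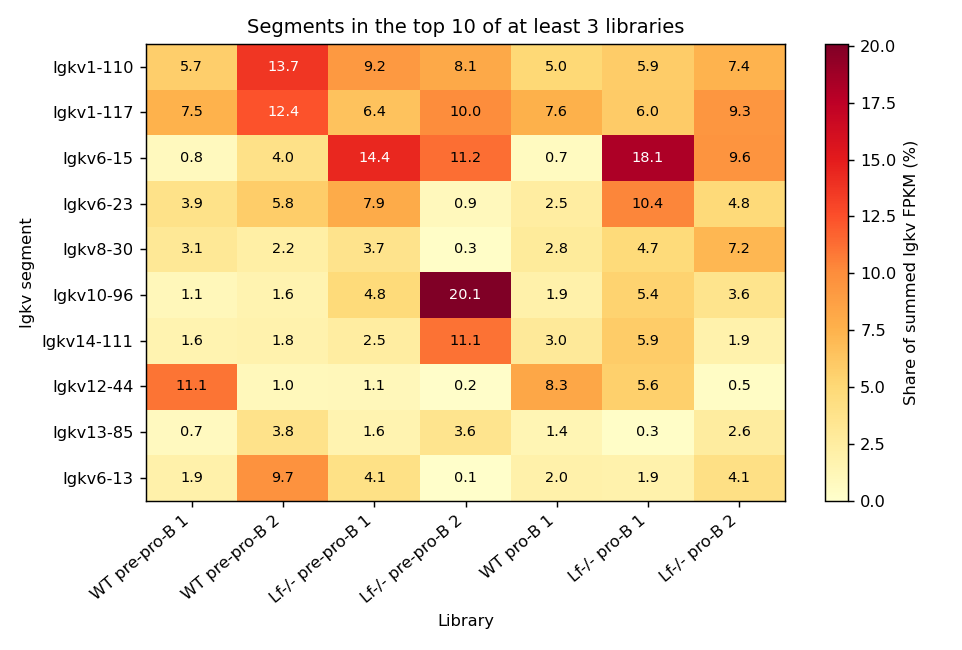
Share of summed Igkv FPKM (percent, written in each cell and given by colour) for the 10 segments that ranked among the 10 highest of at least 3 libraries, with segments in rows and libraries in columns. Igkv1-110 and Igkv1-117 are at 4.98% or more in every library, whereas Igkv6-15 is at 0.664% to 3.96% in the 3 WT libraries and at 9.57% to 18.1% in the 4 Lf-/- libraries.

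Other leading segments were high in some libraries and low in others of the same group. Igkv12-44 had pre-pro-B levels of 3070 and 362 FPKM (WT) and 607 and 38.0 FPKM (Lf-/-), and pro-B levels of 592 FPKM (WT) and 291 and 50.8 FPKM (Lf-/-). Igkv6-13 had pre-pro-B levels of 530 and 3525 FPKM (WT) and 2240 and 18.7 FPKM (Lf-/-), and pro-B levels of 140 FPKM (WT) and 96.0 and 464 FPKM (Lf-/-). For both segments the 2 WT pre-pro-B libraries were far apart, as were the 2 Lf-/- pre-pro-B libraries.

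Igkv3-2, which came next after Igkv12-44 in WT pre-pro-B 1, was at 2393 FPKM there and at 421 FPKM in WT pre-pro-B 2. Igkv12-89 had 301 FPKM in the first and 0.358 FPKM in the other of these libraries. Igkv4-70 held 5.71% of summed Igkv FPKM in WT pre-pro-B 1 and 1.93% in WT pro-B 1, against at most 0.0900% in the other 5 libraries. In WT pro-B 1, Igkv3-2 held 5.20% and Igkv12-89 held 1.72%. All 3 segments were thus higher, as a share, in both WT libraries with the number 1 than in the other 5 libraries.

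Subfamilies, the groups of related V segments given by the first number of the symbol, were used unevenly and differently between libraries. Subfamily 6, with 9 segments, held 10.8% and 25.1% (WT) and 35.3% and 13.8% (Lf-/-) of summed Igkv FPKM at the pre-pro-B stage, and 9.34% (WT) and 33.9% and 21.7% (Lf-/-) at the pro-B stage. Subfamily 1, with 12 segments, held 13.6% to 30.9%, the highest in WT pre-pro-B 2. Subfamilies 6 and 1 led the mean over libraries, at 21.4% and 18.6%.

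Subfamily 12, with 9 segments, held 17.1% and 17.9% in WT pre-pro-B 1 and WT pro-B 1 and 1.15% to 8.75% in the other 5 libraries. Subfamily 4, the largest with 32 segments, held 17.5% in WT pre-pro-B 1 and 10.0% in WT pro-B 1, against 3.45% to 6.91% elsewhere. Subfamily 10, with 3 segments, held 21% in Lf-/- pre-pro-B 2 and 1.43% to 6.44% in the other libraries. WT pre-pro-B 1 and WT pro-B 1 were thus high in subfamilies 12 and 4, while WT pre-pro-B 2 was at 3.84% and 3.45%.

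With the highest segment of each library left out, subfamily 6 held 10.2% to 29.1%, and its value in Lf-/- pro-B 1 went from 33.9% to 19.2%. Subfamily 10 went from 21% to 1.2% in Lf-/- pre-pro-B 2. Its share there was thus mostly that of Igkv10-96.

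Along the locus, the 42 segments nearest to Igkj1, at 18984 to 887770 bases from it, held 34.0% and 38.1% (WT) and 52.3% and 33.2% (Lf-/-) of summed Igkv FPKM in pre-pro-B, and 28.9% (WT) and 48.8% and 36.6% (Lf-/-) in pro-B. The 42 segments farthest away, at 1887716 to 3167065 bases, held 34.1% (Lf-/- pro-B 1) to 55.7% (Lf-/- pre-pro-B 2). The 42 in between held the least in each of the 7 libraries, 10.8% (Lf-/- pre-pro-B 1) to 30.8% (WT pre-pro-B 1). Segments on the plus strand held 32% to 51.7%, and within pre-pro-B the genotypes overlapped on either strand and in the nearest and farthest segments. The segments in between held 30.8% and 16.7% (WT) against 10.8% and 11.1% (Lf-/-) in pre-pro-B, and 27.0% (WT) against 17.1% and 13.9% (Lf-/-) in pro-B, higher in WT within each stage.

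The 10 highest segments overlapped only in part between libraries. Over the 21 pairs of libraries, 2 to 7 of 10 segments were shared. Within a group, the WT pre-pro-B pair shared 3, and the Lf-/- pairs shared 6 at each stage. The 6 pairs of the same stage and different genotype shared 3 to 6, with a median of 4.5.

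Between stages, the pairs with the same genotype and number shared 6 (WT 1), 7 (Lf-/- 1) and 5 (Lf-/- 2) of 10 segments. The pairs of the same genotype and different numbers shared 2, 5 and 7. Weighted by level, the share of summed Igkv FPKM in common was 72.1% for the WT pair numbered 1, 75.5% for the Lf-/- pair numbered 1 and 50.1% for the Lf-/- pair numbered 2. Over all pairs it was 33.6% to 75.5%, and the 2 lowest values were of Lf-/- pre-pro-B 2 with WT pre-pro-B 1 and with WT pro-B 1.

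Across the 126 segments, Pearson correlations of log2(FPKM + 1) between libraries were 0.669 to 0.901. These are descriptions across segments, which are not replicates and share the gene lengths and the sequence similarity of the locus. WT pre-pro-B 1 and WT pro-B 1 were each other's best match, at 0.858, as were Lf-/- pre-pro-B 1 and Lf-/- pro-B 1, at 0.901. WT pre-pro-B 2 was most like Lf-/- pre-pro-B 1, at 0.879, and only 0.716 with the other WT pre-pro-B library. For Lf-/-, equal numbers stand for the same mouse in the titles; for WT the titles give the same number at both stages without saying that it is 1 animal.

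**Figure D4:**
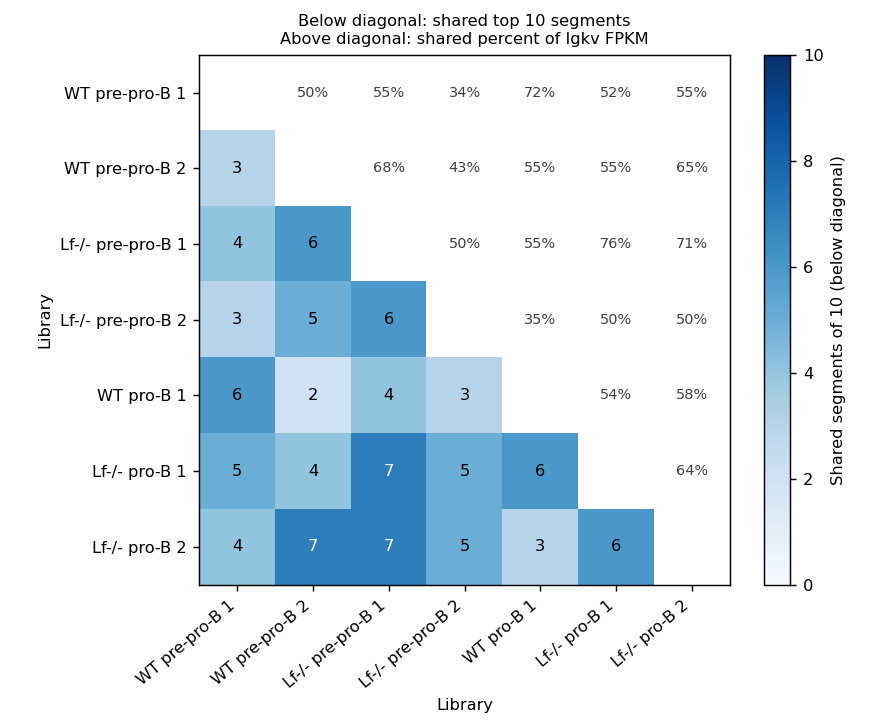
Overlap of Igkv segments for the 21 pairs of libraries. Below the diagonal the number and the colour give the shared segments among the 10 highest of each library, which range from 2 to 7, and above the diagonal the number gives the share of summed Igkv FPKM held in common, which ranges from 33.6% to 75.5%.

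The stages were compared with limma on log2(FPKM + 1) over all 7 libraries, with genotype in the fit, for genes at 1 FPKM or more in at least 2 libraries. The test took in 10793 genes and 104 of the 126 segments. It did not pair libraries of the same number, and a fit with that block is given further below. No segment passed an adjusted p of 0.05, and 0.00927% of all genes did. At an unadjusted p under 0.05, 24 segments (23.1%) passed, against 2.41% of all genes. All 24 were lower in pro-B, against 1.16% of all genes, and 0 were higher, against 1.25%. The median log2 difference over tested segments was -1.3, against -0.03 over all genes. It was -2.03 without Lf-/- pre-pro-B 2 and -0.61 without Lf-/- pre-pro-B 1.

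Within a genotype, the labels give the same numbers at both stages. Equal numbers stand for the same mouse in the titles only for Lf-/-. For WT the titles do not say so, and a block on the number pairs WT libraries by label only. With the number within genotype as a block, chosen after the values were seen, 47 segments passed an unadjusted p of 0.05, 46 of them lower in pro-B, and 3 passed the adjusted p in limma, all lower. The 3 were Igkv3-4 (adjusted p = 0.000311), Igkv3-10 (adjusted p = 0.0367) and Igkv4-68 (adjusted p = 0.00282). WT pre-pro-B 2 has no partner in this fit. Over all genes, 403 of 10793 passed an unadjusted p of 0.05 in it, 176 of them lower in pro-B. The adjusted p was passed by 8 genes, all lower.

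In 10 segments (9.62%) every pro-B value lay below every pre-pro-B value, against 0.945% of all genes (2.15% in either direction). They were Igkv1-110, Igkv1-117, Igkv1-135, Igkv3-3, Igkv3-4, Igkv3-7, Igkv3-10, Igkv6-17, Igkv14-111 and the pseudogene Igkv4-73. No segment lay above in pro-B throughout, against 1.2% of all genes. The 22 kept segments outside the test reached 1 FPKM in fewer than 2 libraries.

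Igkv3-4, a member of subfamily 3 that lies 50774 bases from Igkj1, had the largest difference between stages. It had pre-pro-B levels of 829 and 282 FPKM (WT) and 1010 and 2654 FPKM (Lf-/-), and pro-B levels of 38.8 FPKM (WT) and 65.1 and 223 FPKM (Lf-/-). Its log2 difference, pro-B minus pre-pro-B, was -3.69 (SE 0.56, limma adjusted p = 0.237), -3.96 with the block (SE 0.37) and -3.33 without Lf-/- pre-pro-B 2. All 4 pre-pro-B libraries lay above the 3 pro-B libraries.

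Igkv1-110 differed by -2.63 on the log2 scale (SE 0.60) and Igkv1-117 by -2.27 (SE 0.50), with limma adjusted p of 0.852 and 0.794. The differences were -3.16 and -2.57 without Lf-/- pre-pro-B 2. Igkv14-111 had pre-pro-B levels of 443 and 652 FPKM (WT) and 1355 and 1885 FPKM (Lf-/-), and pro-B levels of 212 FPKM (WT) and 303 and 210 FPKM (Lf-/-). Its log2 difference was -2.13 (SE 0.37, limma adjusted p = 0.358), and here too the stages did not overlap. Igkv10-96 differed by -2.52 (SE 0.42, limma adjusted p = 0.335), or -2.27 without Lf-/- pre-pro-B 2, with Lf-/- pro-B 2 above the lower WT pre-pro-B library.

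As a share of summed Igkv FPKM, no segment lay lower in every pro-B library than in every pre-pro-B library. This scale has no values for other genes, and by order alone 4 libraries against 3 separate fully with a two-sided probability of 0.0571. Shares lay higher in every pro-B library for 5 of 126 segments (3.97%), namely Igkv1-122, Igkv4-54, Igkv4-75, Igkv5-48 and Igkv12-38. Igkv5-48 was the only one of these above 1%, with pre-pro-B shares of 0.153% to 0.732% and pro-B shares of 1.56% to 3.51%. Its FPKM overlapped between stages.

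Without Lf-/- pre-pro-B 2, 69 of 103 tested segments passed an unadjusted p of 0.05 in this comparison, 68 of them lower in pro-B, and 17 passed the adjusted p, all lower. Over all genes, 374 of 10529 passed, 239 of them lower, and 36 passed the adjusted p, 35 of them lower. Igkc differed by -1.63 (SE 0.44, limma adjusted p = 0.947).

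Of 11 plasma cell markers, 10 were tested between stages, and 3 were lower in pro-B at an unadjusted p under 0.05, against 1.16% of all genes, namely Jchain, Igha and Sdc1. None of the 10 passed the adjusted p in limma. Jchain, which links secreted IgA and IgM, had pre-pro-B levels of 643 and 1302 FPKM (WT) and 1509 and 1418 FPKM (Lf-/-), and pro-B levels of 240 FPKM (WT) and 125 and 523 FPKM (Lf-/-). Igha, the IgA heavy chain, ranged over 2977 to 4608 FPKM in the pre-pro-B and 567 to 1100 FPKM in the pro-B libraries. Jchain and Igha separated the stages as Igkc did, and the other plasma cell markers overlapped. By log2 difference, 7 of the 10 tested were lower and 3 higher in pro-B. Mzb1 (211 and 190 FPKM) and Ighg1 (81.1 and 68.5 FPKM) had their highest values in the Lf-/- pro-B libraries.

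The summed plasma cell markers took 0.486% to 0.764% of library FPKM at the pre-pro-B and 0.107% to 0.271% at the pro-B stage. Igha was the highest of them in every library. Prdm1 and Tnfrsf17 were listed at 0 in Lf-/- pre-pro-B 2 and above 0 elsewhere. The part of plasma cell RNA in the Igkv differences was not tested.

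Genotypes were compared within pre-pro-B over 4 libraries with limma, for 9720 genes and 101 segments. No segment passed an adjusted p of 0.05 in limma, as for all genes (0.0%). At an unadjusted p under 0.05, 9 segments (8.91%) passed, against 2.92% of all genes. All 9 were higher in Lf-/- and 0 lower, against 2.0% and 0.926% of all genes. The values of the 2 genotypes did not overlap in 18 segments (17.8%), 13 higher and 5 lower in Lf-/-, against 33.2% of all genes (15.5% higher and 17.7% lower). The median log2 difference over tested segments was -0.08, against 0.03 over all genes.

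The 9 segments were Igkv8-16, Igkv10-96, Igkv4-50, Igkv6-15, Igkv20-101-2, Igkv2-116, Igkv4-90, Igkv11-125 and Igkv14-111. Igkv20-101-2 met the filter of 1 FPKM through the Lf-/- libraries alone. It could therefore be counted only as higher in Lf-/-, both here and among segments without overlap. Igkv8-16 had the largest difference and had 5.51 and 4.70 FPKM (WT) against 70.2 and 94.7 FPKM (Lf-/-). Its means were 5.10 ± 0.57 and 82.4 ± 17.3 FPKM (SD, n = 2 each), a log2 difference of 3.76 (SE 0.42, limma adjusted p = 0.429). Igkv8-16 held at most 0.556% of summed Igkv FPKM in these libraries.

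Igkv10-96 had 293 and 578 FPKM (WT) and 2636 and 3419 FPKM (Lf-/-), a log2 difference of 2.86 (SE 0.52, limma adjusted p = 0.941). Igkv6-15 had 219 and 1442 FPKM (WT) and 7946 and 1912 FPKM (Lf-/-), a log2 difference of 2.79 (SE 1.09, limma adjusted p = 0.941). For both segments each Lf-/- library was above each WT library, by a wide gap for Igkv10-96 and a narrow gap for Igkv6-15. The differences without Lf-/- pre-pro-B 2 were 2.68 for Igkv10-96 and 3.82 for Igkv6-15. Igkv20-101-2 was listed at 0 in both WT pre-pro-B libraries and at 1.31 and 15.0 FPKM in Lf-/-.

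The pre-pro-B comparison depended on its libraries. Each fit without 1 library leaves 1 library in a genotype, so only log2 differences (Lf-/- minus WT) are given. Without Lf-/- pre-pro-B 2 the median over 98 tested segments was 1.3, against -0.10 over all genes. Without Lf-/- pre-pro-B 1 it was -1.66 over 88 segments, against 0.23. It was -0.72 over 89 segments without WT pre-pro-B 1, against 0.09, and -0.04 over 101 without WT pre-pro-B 2, against 0.001.

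The summed Igkv share followed the same split. Lf-/- minus WT in pre-pro-B was 0.447 percentage points over all 4 libraries, 2.53 points without Lf-/- pre-pro-B 2 and -1.64 points without Lf-/- pre-pro-B 1. With 2 libraries against 2, an exact permutation test cannot give a two-sided p below 0.333.

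In pro-B, where the single WT library was assumed to vary like the other groups, limma tested 10793 genes and 104 segments. No segment passed an adjusted p of 0.05, as for all genes (0.0%). At an unadjusted p under 0.05, 6 segments (5.77%) passed, against 4.33% of all genes. Igkv4-63, Igkv6-15 and Igkv11-125 were higher in Lf-/-, against 4.18% of all genes, and Igkv12-38, Igkv4-54 and Igkv8-16 were lower, against 0.148%. In 76 segments both Lf-/- values were above, or both below, the single WT value (73.1%, 43 above and 33 below), against 82.2% of all genes, of which 75.3% were above and 6.9% below.

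The median log2 difference over all genes was 0.48 in this comparison and 0.01 after median-ratio scaling, so the pro-B differences are to be read against a general shift. The median over tested segments was 0.24. The counts of 3 higher and 3 lower were the same under that scaling. All 7 libraries share the estimate of spread, so leaving out a pre-pro-B library changed how many segments passed. The median over tested segments stayed at 0.24 or 0.25 in those fits, against 0.49 over all genes. It was 0.53 without Lf-/- pro-B 1 and -0.02 without Lf-/- pro-B 2, against 0.48 and 0.52 over all genes.

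Igkv6-15 had 47.4 FPKM (WT) and 935 and 1076 FPKM (Lf-/-), a log2 difference of 4.37 (SE 1.19, limma adjusted p = 0.822). Igkv12-38 had 61.8 FPKM (WT) and 3.66 and 5.22 FPKM (Lf-/-), a log2 difference of -3.54 (SE 1.5, limma adjusted p = 0.822). Igkv4-54 had 15.4 FPKM in WT against 0.79 and 1.59 FPKM, a difference of -2.93 (SE 0.91, limma adjusted p = 0.822). Igkv12-38 and Igkv4-54 were higher in WT pro-B 1 than in any of the other 6 libraries.

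Igkv11-125 had pro-B levels of 0.380 FPKM (WT) and 4.95 and 11.4 FPKM (Lf-/-), and pre-pro-B levels of 3.24 and 4.13 FPKM (WT) and 27.9 and 9.26 FPKM (Lf-/-). The segment was low throughout, and each Lf-/- library lay above each WT library of both stages.

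Igkv6-15 and Igkv10-96 took a larger share of the Igkv RNA in every Lf-/- library than in any WT library, at both stages. Igkv6-15 held 0.790%, 3.96% and 0.664% in the WT libraries (pre-pro-B 1 and 2, pro-B 1). Its Lf-/- shares were 14.4% and 11.2% (pre-pro-B) and 18.1% and 9.57% (pro-B). Igkv10-96 held 1.06%, 1.59% and 1.91% in the WT libraries, and 4.77%, 20.1%, 5.37% and 3.64% in the Lf-/- libraries in the same order. The lowest Lf-/- value of Igkv6-15 was thus above the highest WT value, as was that of Igkv10-96, with or without Lf-/- pre-pro-B 2.

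Over all 126 segments, 10 separated the genotypes on this scale, 6 higher (4.76%) and 4 lower (3.17%) in Lf-/-. By order alone, 4 libraries against 3 separate fully with a two-sided probability of 0.0571. This scale has no values for other genes. Higher in Lf-/- were Igkv2-116, Igkv4-79, Igkv6-15, Igkv10-95, Igkv10-96 and Igkv11-125, and lower were Igkv4-55, Igkv4-70, Igkv5-39 and Igkv9-124. Of the 6 higher ones, the 4 other than Igkv6-15 and Igkv10-96 held at most 0.264% in any library. On the FPKM scale, Igkv11-125 (higher) and Igkv4-70 (lower) separated the genotypes over all 7 libraries, 1.92% of tested segments against 11% of all genes (9.87% higher and 1.13% lower).

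Genotypes were also compared in a fit over both stages, chosen after the values were seen. No segment passed an adjusted p of 0.05, against 0.185% of all genes, and 13 (12.5%) passed an unadjusted p of 0.05, against 7.17%. Of these, 9 were higher and 4 lower in Lf-/-, against 6.48% and 0.695% of all genes. Igkv6-15 differed by 3.42 on the log2 scale (SE 0.72, limma adjusted p = 0.166) and Igkv10-96 by 2.24 (SE 0.42, limma adjusted p = 0.133). After median-ratio or quantile scaling, 9 segments passed, 5 higher and 4 lower; the median over all genes was 0.21 before and -0.06 after median-ratio scaling. Without Lf-/- pre-pro-B 2, 40 of 103 segments passed, 37 of them higher, and 8 passed the adjusted p. Over all genes, 1013 of 10529 passed, 929 of them higher, and 123 passed the adjusted p. Igkv6-15 differed by 4.10 and Igkv10-96 by 1.99 in this fit. Without Lf-/- pre-pro-B 1, 28 of 100 passed, 22 of them lower, against 3033 of 10581 genes, 254 of them lower. Without WT pre-pro-B 2, 24 of 104 passed, 12 in each direction, against 434 of 10649 genes, 382 higher and 52 lower.

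On the other side, Igkv12-44 differed by -2.57 (SE 1.06, limma adjusted p = 0.678), Igkv3-2 by -2.62 (SE 1.06, limma adjusted p = 0.656) and Igkv4-70 by -5.03 (SE 1.32, limma adjusted p = 0.319). For Igkv12-44 and Igkv3-2, WT pre-pro-B 2 was below Lf-/- pre-pro-B 1. With 4 libraries against 3, the smallest two-sided p of an exact permutation test is 0.0571.

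**Figure D5:**
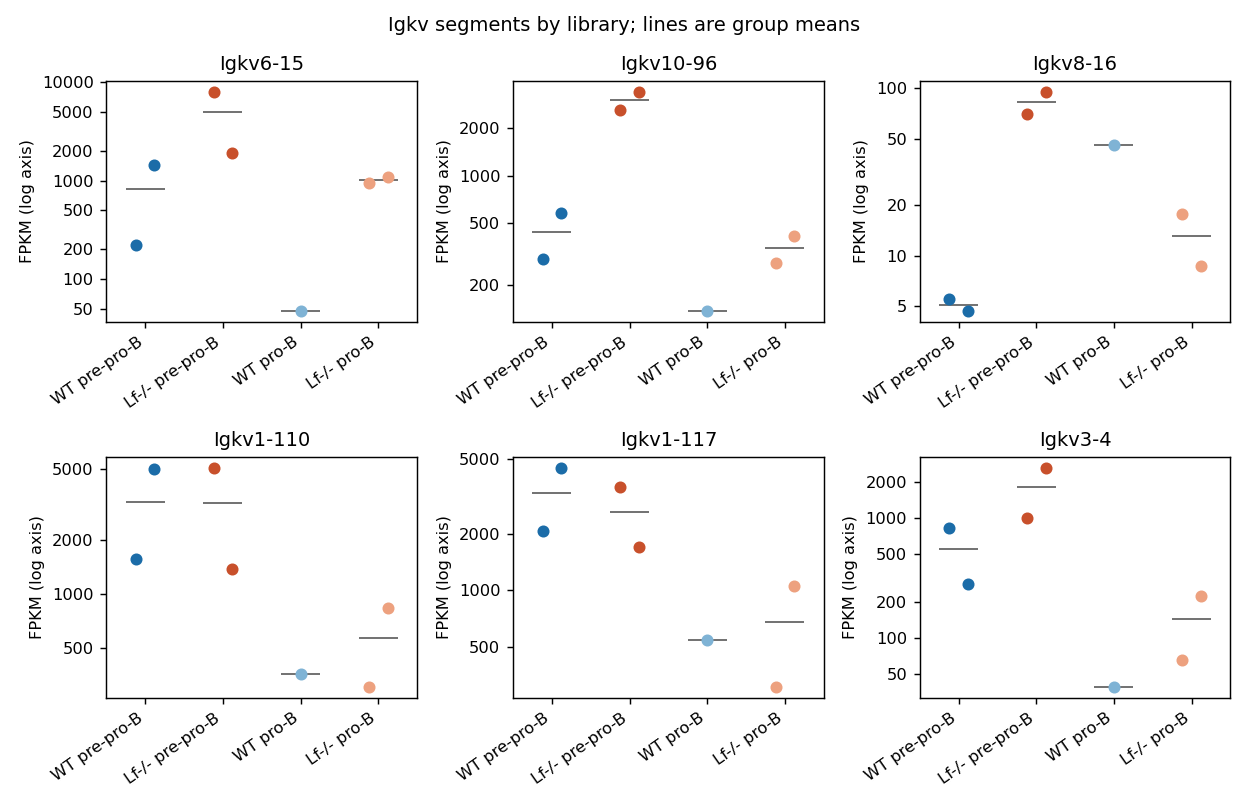
FPKM on a log axis of 6 segments by group, with 1 point for each library and a grey line at the group mean (WT pro-B has 1 library). Igkv6-15 and Igkv10-96 are higher in Lf-/- within each stage, Igkv8-16 is higher in Lf-/- pre-pro-B (70.2 and 94.7 FPKM) and lower in Lf-/- than in WT pro-B, and Igkv1-110, Igkv1-117 and Igkv3-4 are lower in the 3 pro-B libraries than in the 4 pre-pro-B libraries.

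The joining segments, to which V segments are joined, stayed at low FPKM. Igkj1 had pre-pro-B levels of 8.41 and 5.03 FPKM (WT) and 33.4 and 10.9 FPKM (Lf-/-), and pro-B levels of 3.91 FPKM (WT) and 14.8 and 12.5 FPKM (Lf-/-). Igkj2 had pre-pro-B levels of 1.52 and 1.14 FPKM (WT) and 4.61 and 3.91 FPKM (Lf-/-), and pro-B levels of 0.740 FPKM (WT) and 4.78 and 2.92 FPKM (Lf-/-). Both were higher in each Lf-/- library than in any WT library, whereas Igkj3, Igkj4 and Igkj5 were listed at 0 in Lf-/- pre-pro-B 2 and overlapped between genotypes.

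Igkc, by contrast, did not separate the genotypes, with log2 differences of -0.22 (SE 0.73) at the pre-pro-B stage and -0.17 (SE 0.83) at the pro-B stage. In the fit over both stages, Igkj2 differed by 1.29 (SE 0.31, limma adjusted p = 0.245).

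Genes that open, cut, join and transcribe the kappa locus were read from a list of 23. In pre-pro-B, 18 were tested, 17 had a positive log2 difference (Lf-/- minus WT), 16 did not overlap in that direction, against 15.5% of all genes, and 6 were higher at an unadjusted p under 0.05, against 2.0%. In pro-B, all 19 tested genes lay higher in both Lf-/- libraries, against 75.3% of all genes, and 6 were higher at that threshold, against 4.18%. None passed the adjusted p in limma in either stage. The median log2 differences were 1.09 and 1.02. Rag1 and Dclre1c, under 1 FPKM in every WT library, met the filter in both tests through Lf-/- libraries alone, as did Tcf4 in pro-B. In pre-pro-B, Rag1 and Dclre1c could therefore be counted only as higher, and Rag1 is among the 6.

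Rag1, a subunit of the recombinase, had pre-pro-B levels of 0.17 and 0.16 FPKM (WT) and 1.41 and 1.81 FPKM (Lf-/-), and pro-B levels of 0 FPKM (WT) and 0.89 and 0.34 FPKM (Lf-/-). Irf4, a transcription factor that acts at the kappa enhancers, had pre-pro-B levels of 1.83 and 0.42 FPKM (WT) and 8.38 and 7.29 FPKM (Lf-/-), and pro-B levels of 0.93 FPKM (WT) and 6.69 and 2.12 FPKM (Lf-/-). Blnk, an adaptor of the pre-B cell receptor, had pre-pro-B levels of 9.31 and 7.67 FPKM (WT) and 27.9 and 35.7 FPKM (Lf-/-), and pro-B levels of 3.01 FPKM (WT) and 39.0 and 17.9 FPKM (Lf-/-). Each of these 3 genes was higher in every Lf-/- library than in any WT library.

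Between stages the same list lay lower in pro-B for 18 of 19 tested genes, with a median log2 difference of -0.39, and 1, Xrcc6, which encodes a DNA end-joining protein, passed an unadjusted p of 0.05, against 1.16% of all genes. Over both stages, 15 of the 19 were higher in Lf-/- at an unadjusted p under 0.05, against 6.48% of all genes, and 0 passed the adjusted p in limma. The 15 included Rag1 and Tcf4, which reached 1 FPKM in Lf-/- libraries only.

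Markers of B lineage stages were compared between genotypes in pre-pro-B. Of 15 early B markers, 14 were tested and all 14 had a positive log2 difference, with a median of 1.13. At an unadjusted p under 0.05, 4 passed, against 2.0% of all genes. Without overlap, 7 of the 14 were higher in Lf-/-, against 15.5% of all genes, and 0 lower. Kit, the untested marker, was at 1.09 and 0.98 FPKM (WT) and 0.48 and 0 FPKM (Lf-/-). Rag1 and Pax5 are also in the list of kappa locus genes, and Rag1 is among the 4. Of 6 mature B markers, 5 were tested, and 4 were higher in Lf-/- at an unadjusted p under 0.05, with a median of 2.74. No early B or mature B marker passed the adjusted p in limma in this comparison. In the fit over both stages, 3 of 5 mature B and 1 of 14 early B markers passed it, higher in Lf-/-, against 0.185% of all genes. The summed mature B markers took 0.002% to 0.003% of library FPKM in the 3 WT libraries and 0.015% to 0.045% in the 4 Lf-/- libraries.

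Fcmr, an IgM receptor of B cells, had pre-pro-B levels of 16.2 and 8.30 FPKM (WT) and 77.7 and 190 FPKM (Lf-/-), and pro-B levels of 9.73 FPKM (WT) and 117 and 109 FPKM (Lf-/-). Cr2 was listed at 0 in WT pre-pro-B 1 and was at most 1.09 FPKM. Of the pre-B markers other than Igkc, Cd2 was at 5.11 to 13.8 FPKM in WT and 15.9 to 60.4 FPKM in Lf-/- libraries, and Il2ra was at 0 to 1.10 FPKM. The part of these cells in the levels of Igkv6-15 and Igkv10-96 was not tested.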

How the data were processed

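RNA of sorted pre-pro-B and pro-B cells was sequenced. The deposited values are FPKM per gene, read as such from their values. The submitters' processing notes name TopHat, Cufflinks, HTSeq and DESeq and the build GRCm38; versions and the treatment of reads shared by similar segments are not given in the sources used here. Depth is unknown, since no counts were used and low values showed no step that fixed it in every library.

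Symbols were matched to GENCODE M21 (52403 of 52550 genes). FPKM was summed over Igkv genes and divided by the library total. limma 3.58.1 (R 4.3.3, mean-variance trend, two-sided, Benjamini-Hochberg over all genes tested) was run on log2(FPKM + 1) for genes reaching 1 FPKM in 2 or more libraries of the fit, so a log2 difference understates the change of low genes. The fit was tested on simulated data. Identity was computed with edlib 1.3.9.post1. No count test was run, since FPKM are not counts.

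The members and lists were chosen with earlier results of these data known. Named segments were the 5 highest of each library, per stage the 5 largest genotype differences in each direction among those that did not overlap and passed an unadjusted p of 0.05, the largest stage differences, and those in the top 10 of most libraries; others were chosen after their values were seen. The lists were kappa rearrangement and transcription genes, the constant and joining genes, and markers of early B, pre-B, mature B, plasma, neutrophil, T and NK, plasmacytoid dendritic and erythroid cells. Alternatives were the pseudocount (0.1), no filter, median-ratio and quantile scaling, a replicate block, other sets of libraries, and leaving out each library. The titles give the same Lf-/- mouse number at both stages; deviations of the Lf-/- libraries numbered 1 correlated at -0.01 between stages, and the WT pair could not be checked, WT pro-B having 1 library. The methods state 3 mice per group, and the labels list 2 samples per group. The full surface definition of the pre-pro-B gate is not reported here.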

Additional observations from a re-analysis of the deposited data

Results flagged for a closer look

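Igkv8-16 was marked because its Lf-/- values lay above WT in pre-pro-B and below WT in pro-B, without overlap in either stage. It had 5.51 and 4.70 FPKM (WT) and 70.2 and 94.7 FPKM (Lf-/-) in pre-pro-B, but 45.6 FPKM (WT) and 17.8 and 8.66 FPKM (Lf-/-) in pro-B. The Lf-/- minus WT difference on the log2 scale was 3.76 at the pre-pro-B and -1.79 at the pro-B stage, and the difference between them was -5.55 (SE 0.70, limma adjusted p = 0.983 over 10793 genes). The test of the difference therefore missed the adjusted threshold, and its WT pro-B side rests on 1 library. Of 104 tested segments, 5 passed an unadjusted p of 0.05 in this test and 0 the adjusted p, and over all genes 296 and 0 did. The other 4 were Igkv4-50, Igkv4-54, Igkv4-57-1 and Igkv4-90.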

How the results depend on the processing

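The named values refitted here were only the 28 that passed an unadjusted p of 0.05 in the main fits. Of their 335 refits, 284 kept their direction and stayed under that threshold, 51 lost it and 0 turned direction. The choice favours stable values. Named segments that had missed the threshold could turn: in pre-pro-B, Igkv6-13 ranged from -6.12 to 0.71 over the refits and Igkv1-110 from -1.02 to 0.87. In pre-pro-B, leaving out 1 library leaves 1 library in a genotype, so only medians are compared here. The median log2 difference over tested segments was -1.66 without Lf-/- pre-pro-B 1, against 0.23 over all genes. It was 1.3 without Lf-/- pre-pro-B 2, against -0.10, and -0.08 with all 4 libraries, against 0.03. In pro-B it gave 3 to 22 segments, against 6, and none passed the adjusted p; WT pro-B 1 could not be left out, being the only WT library. A pseudocount of 0.1 FPKM gave 3 segments at an unadjusted p under 0.05 in pro-B, against 6 in the main fit. Over all genes it gave 461 of 10793, against 467. Between stages, leaving out 1 library gave 18 to 69 segments at an unadjusted p under 0.05, against 24 with all libraries. The 18 were of 104 tested, against 616 of 10738 genes, and the 69 were of 103, against 374 of 10529 genes. At the adjusted p it gave 0 to 17 segments, and the fit with 17 gave 36 genes. Over both stages, leaving out 1 library gave 12 to 40 segments, against 13, and 0 to 8 at the adjusted p. The fit with 40 gave 1013 of 10529 genes, and 123 genes at the adjusted p. Of the fits with 12, that without WT pro-B 1 gave 529 of 10738 genes and that without Lf-/- pro-B 1 gave 425 of 10280. The share difference between stages was 2.51 to 3.90 percentage points and, weighted by transcript length, 1.23. The genotype difference in pre-pro-B was -1.64 to 2.53 points. The cause of these changes was not tested. A fit that leaves 1 library in an arm assumes that it varies like the others.

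Across genotypes, equal numbers stand for different animals by the labels. Deviations of WT pre-pro-B 1 correlated at 0.04 and 0.05 with those of the Lf-/- libraries numbered 1. The 2 Lf-/- libraries numbered 1, from the same mouse by their titles, gave -0.01, so this measure cannot tell shared from separate origin. By the labels, WT and Lf-/- have only the number in common. With a replicate block on this number, 44 of 101 segments in pre-pro-B passed an unadjusted p of 0.05, 20 higher and 24 lower, and 14 the adjusted p. Over all genes, 532 of 9720 passed, 240 higher and 292 lower, and 65 the adjusted p. The block gave 9 of 104 segments in pro-B, against 487 of 10793 genes, and 31 between stages, against 249. Over both stages it gave 17, against 635 genes. No segment passed the adjusted p in these comparisons, against 0, 0 and 22 genes. A replicate block of the number within genotype, chosen after seeing the data, gave 47 between stages, 46 lower, and 3 at the adjusted p. Over all genes it gave 403 of 10793, 176 lower, and 8 at the adjusted p. Testing only genes above 0 in Lf-/- pre-pro-B 2 gave 9 of 84, against 282 of 8506 genes, also chosen after seeing the data. Depth was unknown, so no counting error could be given for low segments.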

Other observations

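Among the 26 pseudogenes above 0 FPKM, 5 were above 0 in all 7 libraries, namely Igkv2-116, Igkv4-60, Igkv4-73, Igkv4-77 and Igkv12-40. The highest value was 27.4 FPKM, for Igkv2-116 in Lf-/- pre-pro-B 2, where the other libraries ranged from 0.24 to 4.93 FPKM. Igkv4-73 was at 2.04 to 10.9 FPKM in pre-pro-B and at 0.62 to 1.23 FPKM in pro-B. Igkv4-77 was at 1.21 FPKM (WT pro-B 1) to 19.6 FPKM (WT pre-pro-B 1). These values were lower than those of the leading functional segments by orders of magnitude, and how reads of functional segments were divided with them is not given in the sources used here.

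Merging segments at least 95% identical left 94 groups. After merging, the shared groups among the 10 highest were 4 for the 2 WT pre-pro-B libraries, 7 for WT pre-pro-B 1 and WT pro-B 1, and 8 for Lf-/- pre-pro-B 1 and Lf-/- pro-B 1.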
